A study of Mus musculus with 2 samples.

Results

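The genes described here encode the matrix metalloproteinases (MMPs), the ADAMTS proteases with the ADAMTS-like proteins (ADAMTSL), and the tissue inhibitors of metalloproteinases (TIMPs). They were chosen by symbol, with earlier results of these data known. They make up 51 of the 27998 genes in the count matrices, namely 23 MMPs, 19 ADAMTS proteases, 5 ADAMTS-like proteins and 4 TIMPs. Their RNA was read in 2 single-nucleus libraries of mouse whole brain. WBRT-28d came from mice that received whole-brain irradiation in 5 fractions of 2 Gy and were killed 28 days later. ShamRT-28d came from mock-irradiated mice, which the sample labels call untreated. Both groups were wild-type C57BL/6 mice (C57BL/6J in the study's methods, bought as females aged 4 to 6 weeks), and each library pooled the frozen brains of 2 mice. With 1 library per condition, no difference between the conditions has a replicate check, and nuclei are not replicates. The ranges in parentheses are exact 95% intervals for counting error only.

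MMPs and ADAMTS proteases are zinc enzymes that cut the extracellular matrix, and most are made as inactive precursors. In the brain this matrix is rich in the chondroitin sulfate proteoglycans brevican, neurocan and versican, which several ADAMTS enzymes cleave, and in the basement membranes of vessels and meninges, which many MMPs cleave. The 4 TIMPs block MMPs by binding the active site, and Timp3 also inhibits several ADAMTS enzymes. ADAMTS-like proteins share the outer domains of the family but have no protease domain.

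Of the members, 12 held fewer than 20 UMIs (unique molecular identifiers, each a captured RNA molecule) over the kept nuclei of both libraries, and 10 of those 12 lie on chromosome 9. This cluster holds the collagenases, stromelysins and macrophage elastase that are known as inducible genes, and the promoters of many such genes carry the AP-1 motif TGAGTCA. Promoter windows from 250 bases before to 50 bases after the start were taken from RefSeq (build GRCm38.p6), which had an entry for 36 of the 51 members, and searched for TGAGTCA on both strands. The motif stood in 7 of the 12 little detected members (58.3%) and in 0 of the 24 others that matched, against 1607 of all 27025 genes with a window (5.95%). The little detected Mmp8, Mmp20, Mmp21, Mmp25 and Mmp27 did not hold it, although Mmp8, Mmp20 and Mmp27 also lie on chromosome 9. All 12 little detected members had a window, but only 24 of the 39 others did. A gene was counted where any of its windows held the motif. Mmp7 and Mmp12 each also had a window without it. The Mmp12 window shown lies inside the annotated gene (chr9:7344381-7369499). All 7 genes lie close together on chromosome 9, so they are not 7 independent cases. These 7 sequences are shown because they hold the motif and belong to genes that stayed near 0 in both libraries. Each gives the 100 bases before the start on the gene's own strand, with the motif in capitals (in Mmp13 it lies on the other strand and reads TGACTCA), and a match of letters says nothing about binding.
Mmp1a, chr9:7464041-7464140 (+): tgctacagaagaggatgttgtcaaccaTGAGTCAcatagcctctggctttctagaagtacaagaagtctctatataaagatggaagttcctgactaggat
Mmp1b, chr9:7388027-7388126 (-): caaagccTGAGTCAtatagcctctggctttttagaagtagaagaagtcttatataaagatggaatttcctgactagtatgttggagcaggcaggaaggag
Mmp3, chr9:7445722-7445821 (+): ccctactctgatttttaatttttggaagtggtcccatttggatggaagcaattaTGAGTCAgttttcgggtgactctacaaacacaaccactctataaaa
Mmp7, chr9:7691990-7692089 (+): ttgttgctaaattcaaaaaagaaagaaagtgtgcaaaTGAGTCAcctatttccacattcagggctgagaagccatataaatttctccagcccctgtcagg
Mmp10, chr9:7502242-7502341 (+): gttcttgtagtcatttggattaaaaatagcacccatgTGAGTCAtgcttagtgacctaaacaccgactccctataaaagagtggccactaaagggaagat
Mmp12, chr9:7347274-7347373 (+): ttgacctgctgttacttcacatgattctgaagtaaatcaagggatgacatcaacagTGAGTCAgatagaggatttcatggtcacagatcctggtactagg
Mmp13, chr9:7272414-7272513 (+): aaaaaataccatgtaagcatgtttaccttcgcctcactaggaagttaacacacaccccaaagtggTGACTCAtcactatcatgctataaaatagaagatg

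In kept nuclei, Mmp1a, Mmp3 and Mmp7 had no UMI in either library. Mmp1b had 3 UMIs and Mmp10 had 2 UMIs in WBRT-28d, against 0 UMIs of each in ShamRT-28d. Mmp13 had 2 UMIs and Mmp27 had 1 UMI in each library. Mmp8, Mmp12 and Mmp20 had 0 UMIs in WBRT-28d, against 1 UMI, 2 UMIs and 1 UMI in ShamRT-28d, and both Mmp12 UMIs lay in microglia. Off chromosome 9, Mmp21 had 7 UMIs in each library, and Mmp25 had 5 UMIs in WBRT-28d and 2 UMIs in ShamRT-28d. The 12 genes summed to 20 UMIs in WBRT-28d and 16 in ShamRT-28d, so a difference between the conditions was not detectable for them at this depth.

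After filters, 13664 nuclei with 53310762 UMIs were kept in WBRT-28d and 10024 nuclei with 39043285 UMIs in ShamRT-28d, at medians of 2457 UMIs per nucleus in WBRT-28d and 2317 in ShamRT-28d. Each nucleus was placed in a class by marker genes, none of them a member, and UMIs were summed per class and library. Levels are given as CPM, that is UMIs of a gene per 1000000 UMIs of the class, and every ratio is the CPM of WBRT-28d over that of ShamRT-28d. In each class named below, most or all markers of its own list were detected in both libraries. The number of barcodes found in both libraries was 43, of which 33 were in both among the kept nuclei. RNA of neurons was found outside neurons at a higher level in WBRT-28d. It is called free RNA here, as from broken cells, though doublets that were not called could add to it, which was not tested. Transcripts of 8 neuron genes stood at 21.95% of their library mean in oligodendrocytes of WBRT-28d, against 10.7% in those of ShamRT-28d, at 22.9% in WBRT-28d and 11.0% in ShamRT-28d in microglia, and at 23.1% in WBRT-28d and 14.7% in ShamRT-28d in astrocytes. The same share of each member's mean gives the level that free RNA predicts for it, and this is set beside the results that it touches. In OPCs (oligodendrocyte precursor cells) the share was 44.8% in WBRT-28d and 36.0% in ShamRT-28d. One of the 8 genes, Syn2, stood in WBRT-28d at 464 CPM in OPCs, 318 CPM in astrocytes and 502 CPM in neurons. In ShamRT-28d it stood at 420, 224 and 358 CPM in the same order. The predictions for OPCs and astrocytes may therefore be too high, which was not tested.

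Most members with 20 UMIs or more had their highest level in the same cell type in both libraries. Of these 39 members, 24 had the same highest class in both libraries, and for 12 of the 24 the interval of the level lay apart from that of the next class in both. Reads from introns were counted, so long genes collect more UMIs, and levels are therefore compared between classes and libraries for each gene and not between genes.

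**Figure D1:**
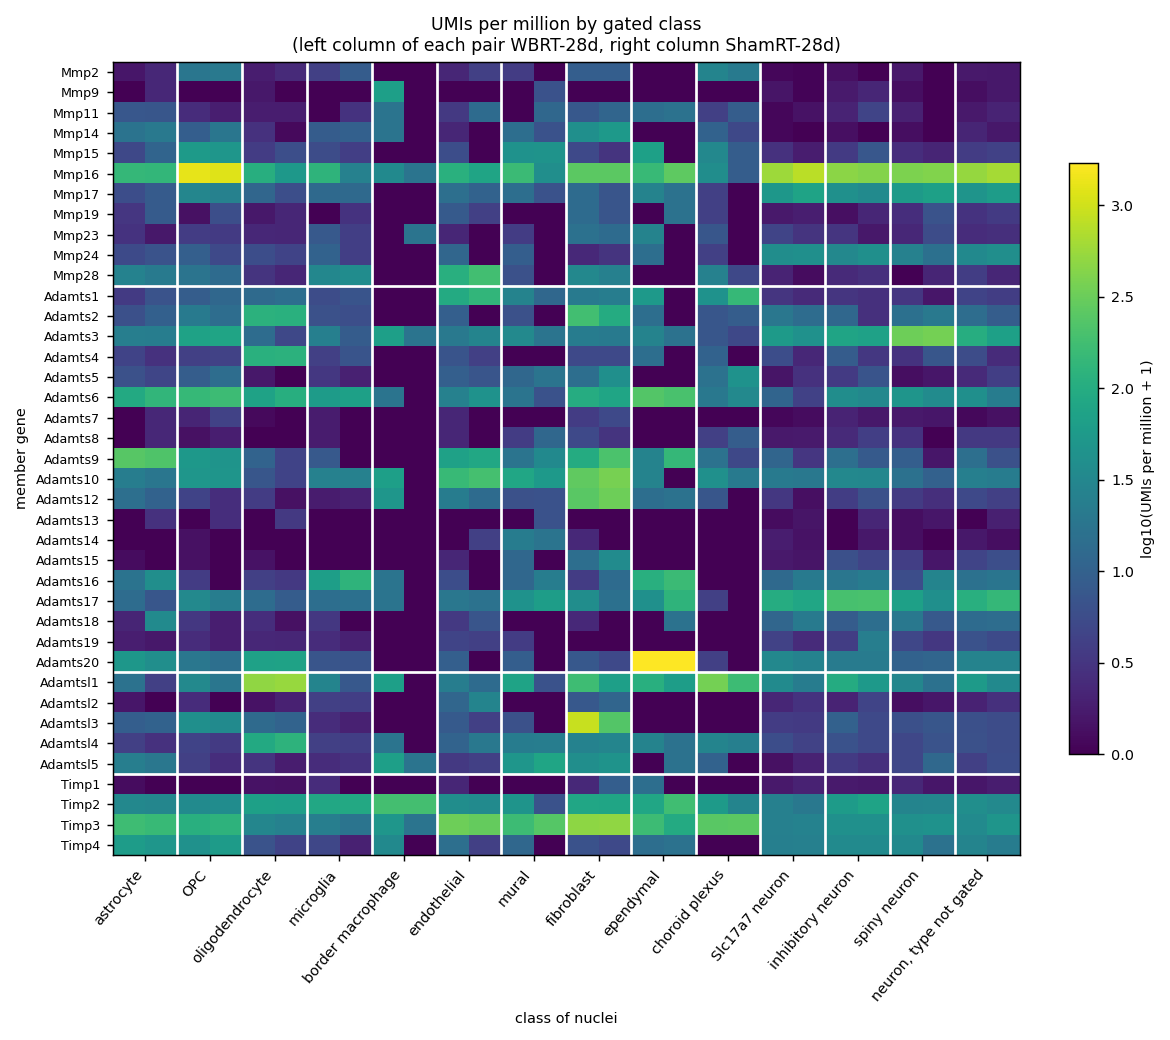
CPM of the 39 members with 20 UMIs or more (down the page, on a log10(CPM + 1) color scale) in 14 classes of nuclei (across), with WBRT-28d as the left column of each pair and ShamRT-28d as the right. Adamts20 stands out in ependymal nuclei in both columns (1670 CPM in WBRT-28d, 1701 CPM in ShamRT-28d), and Adamtsl3 in fibroblasts is brighter in the WBRT-28d column (921 CPM, against 229 CPM in ShamRT-28d).

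Mmp16, a transmembrane MMP (chr4:17852893-18119145, plus strand, here and below on GRCm38), held 84.1% of the MMP UMIs of WBRT-28d and 84.5% of those of ShamRT-28d. Its gene spans 266 kb, while the next longest MMP gene, Mmp20, spans 46.7 kb. The part of gene length in this share was not tested. Mmp16 was highest in oligodendrocyte precursor cells (OPCs), with 1285 CPM in WBRT-28d and 1190 CPM in ShamRT-28d, which was 2.23 times (WBRT-28d) and 1.51 times (ShamRT-28d) the level of the next class, Slc17a7 neurons. Mmp15, another transmembrane MMP, stood in OPCs at 56.1 CPM (143 UMIs) in WBRT-28d and 48.9 CPM (58 UMIs) in ShamRT-28d. Mmp24, the transmembrane enzyme known from neurons, stood in Slc17a7 neurons at 37.7 CPM in WBRT-28d and 39.6 CPM in ShamRT-28d.

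Mmp17, which is held to the membrane by a lipid anchor, was a neuron transcript, with 47.7 CPM in neurons of WBRT-28d and 63.5 CPM in those of ShamRT-28d, a ratio of 0.753 (0.701–0.808) that did not reach the fold of 1.5. Mmp14, which activates the precursor of Mmp2, was highest in fibroblasts at 39.8 CPM in WBRT-28d and 53.5 CPM in ShamRT-28d. Mmp2 (gelatinase A) itself was low in every class, with 9 UMIs in choroid plexus and 45 in OPCs (17.7 CPM) in WBRT-28d, against 5 UMIs in choroid plexus and 23 in OPCs (19.4 CPM) in ShamRT-28d.

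Mmp9 (gelatinase B), the MMP most often studied after injury to the blood-brain barrier, was nearly absent. It had 25 UMIs in all kept nuclei of WBRT-28d and 16 in those of ShamRT-28d. Of these, 4 came from 2 border macrophage nuclei of WBRT-28d, with 0 UMIs among the 27 border macrophage nuclei of ShamRT-28d. Neutrophils are the classical source of Mmp9. Of 8 neutrophil markers, 5 were detected over all nuclei of WBRT-28d (31.4 CPM summed) and 6 over those of ShamRT-28d (25.3 CPM), of which microglia held 840 of 1674 UMIs in WBRT-28d and 753 of 986 UMIs in ShamRT-28d. Mmp11, Mmp19 and Mmp23 were also sparse. Over all nuclei of WBRT-28d there were 70 UMIs of Mmp11 (stromelysin-3), 93 of Mmp19 and 143 of Mmp23, against 62 UMIs, 96 UMIs and 83 UMIs in ShamRT-28d, and none of their ratios over all nuclei reached the fold.

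Mmp28 (epilysin, chr11:83440768-83463071, minus strand) was an endothelial transcript. Its level in endothelial nuclei was 109 CPM in WBRT-28d and 179 CPM in ShamRT-28d, which was 3.45 times (WBRT-28d) and 4.93 times (ShamRT-28d) that of the next class.

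The ADAMTS proteases that trim procollagen (Adamts2, Adamts3 and Adamts14) were spread over different classes. Adamts3, which also activates VEGF-C and cleaves reelin, was highest in spiny projection neurons at 333 CPM in WBRT-28d and 355 CPM in ShamRT-28d, 3.23 times (WBRT-28d) and 4.73 times (ShamRT-28d) the next class. Adamts2 was shared by fibroblasts (180 CPM in WBRT-28d, 96.8 CPM in ShamRT-28d) and oligodendrocytes (118 CPM in WBRT-28d, 111 CPM in ShamRT-28d). Adamts14 was a trace transcript with its highest level in mural cells, from 8 UMIs in 5 nuclei of WBRT-28d and 3 UMIs in 2 nuclei of ShamRT-28d. In ShamRT-28d its interval there overlapped that of the next class. Neurons held 18 of its 35 UMIs in WBRT-28d and 9 of its 17 UMIs in ShamRT-28d.

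The proteases that cut brevican, versican and other proteoglycans lay in different cell types. Adamts4 (chr1:171250421-171260637, plus strand) was found mainly in oligodendrocytes, at 112 CPM in WBRT-28d and 118 CPM in ShamRT-28d, 8.25 times (WBRT-28d) and 18.6 times (ShamRT-28d) the next class, and its ratio there was 0.950 (0.844–1.07). Adamts20 (chr15:94270163-94465418, minus strand) was highest in ependymal nuclei at 1670 CPM in WBRT-28d and 1701 CPM in ShamRT-28d, 24.2 times (WBRT-28d) and 23.6 times (ShamRT-28d) the next class, from 123 UMIs in 26 nuclei of WBRT-28d and 109 UMIs in 20 nuclei of ShamRT-28d. Its ependymal ratio was 0.982 (0.752–1.28).

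Adamts9 (chr6:92772699-92943492, minus strand) was highest in astrocytes, at 242 CPM in WBRT-28d and 219 CPM in ShamRT-28d. Fibroblasts came next in both libraries, at 97.4 CPM in WBRT-28d and 204 CPM in ShamRT-28d, and in ShamRT-28d the intervals of both classes overlapped. Adamts1 was a transcript of endothelial nuclei (92.1 CPM in WBRT-28d, 132 CPM in ShamRT-28d) and of choroid plexus (43.7 CPM in WBRT-28d, 143 CPM in ShamRT-28d). Adamts5, the main aggrecanase of mouse cartilage, was low, with 5 UMIs in choroid plexus and 10 in fibroblasts of WBRT-28d, against 11 UMIs in choroid plexus and 19 in fibroblasts of ShamRT-28d. Over all nuclei, WBRT-28d held 83 UMIs of Adamts8 and 150 of Adamts15, against 51 UMIs of Adamts8 and 93 of Adamts15 in ShamRT-28d, and Adamts15 was highest in fibroblasts at 13.7 CPM in WBRT-28d and 35.0 CPM in ShamRT-28d.

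Adamts6, Adamts10 and Adamts17, which are known for their link to fibrillin microfibrils, lay in 3 different classes. Adamts10 was highest in fibroblasts (279 CPM in WBRT-28d and 364 CPM in ShamRT-28d), with endothelial nuclei next (150 CPM in WBRT-28d, 188 CPM in ShamRT-28d). Adamts17 was highest in inhibitory neurons (195 CPM in WBRT-28d, 199 CPM in ShamRT-28d), and its ratio there was 0.980 (0.853–1.13). Adamts6 was highest in ependymal nuclei (231 CPM from 17 UMIs in WBRT-28d, 203 CPM from 13 UMIs in ShamRT-28d), followed by OPCs (146 CPM in WBRT-28d, 165 CPM in ShamRT-28d) and astrocytes (89.8 CPM in WBRT-28d, 131 CPM in ShamRT-28d).

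Adamts12 and Adamts7 cleave cartilage oligomeric matrix protein. Adamts12 was a fibroblast transcript at 255 CPM in WBRT-28d and 331 CPM in ShamRT-28d, 5.18 times (WBRT-28d) and 21.2 times (ShamRT-28d) the next class. Adamts7 had only 23 UMIs in WBRT-28d and 21 UMIs in ShamRT-28d in all nuclei. Adamts16 was highest in ependymal nuclei (8 UMIs in WBRT-28d, 10 UMIs in ShamRT-28d) and microglia (63.3 CPM in WBRT-28d, 125 CPM in ShamRT-28d), Adamts18 stood at 12.1 CPM in neurons of WBRT-28d and 16.4 CPM in those of ShamRT-28d but had its highest class of ShamRT-28d in astrocytes (1.14 CPM in WBRT-28d, 34.0 CPM in ShamRT-28d), and Adamts19 was sparse in neurons (4.79 CPM in WBRT-28d, 5.04 CPM in ShamRT-28d).

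Of the ADAMTS-like proteins, Adamtsl1 and Adamtsl4 were oligodendrocyte transcripts. Adamtsl1 (chr4:85514172-86428385, plus strand) stood at 488 CPM in WBRT-28d and 540 CPM in ShamRT-28d in this class. Adamtsl4, which binds fibrillin, stood at 92.1 CPM in WBRT-28d and 121 CPM in ShamRT-28d there, with a ratio of 0.763 (0.673–0.864) that did not reach the fold. Adamtsl3 (chr7:82335694-82614450, plus strand) was a fibroblast transcript, 23.2 times (WBRT-28d) and 6.62 times (ShamRT-28d) the next class. Adamtsl5 stood in mural cells at 48.8 CPM (18 UMIs) in WBRT-28d and 77.8 CPM (14 UMIs) in ShamRT-28d, and Adamtsl2 had 9 UMIs in the endothelial nuclei of each library.

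Timp2, Timp3 and Timp4 each had a different highest class. Timp3, which stays bound to the matrix, was highest in fibroblasts, at 483 CPM in WBRT-28d and 490 CPM in ShamRT-28d, with endothelial nuclei next at 324 CPM in WBRT-28d and 296 CPM in ShamRT-28d. Timp2 was highest in border macrophages (181 CPM in WBRT-28d, 184 CPM in ShamRT-28d, from 11 UMIs in each library) and stood at 84.9 CPM in WBRT-28d and 89.2 CPM in ShamRT-28d in microglia. Timp4 was shared by astrocytes (60.8 CPM in WBRT-28d, 48.5 CPM in ShamRT-28d) and OPCs (42.0 CPM in WBRT-28d, 58.1 CPM in ShamRT-28d).

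Timp1, the inducible TIMP, had 34 UMIs in WBRT-28d and 29 UMIs in ShamRT-28d in all nuclei. The genes of Timp1, Timp3 and Timp4 lie wholly within the synapsin genes Syn1, Syn3 and Syn2 on the opposite strand, and whether the counting used strand is not given in the sources used here. Timp3 and Timp4 levels may thus include reads of these neuron genes, and this was not tested.

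**Figure D2:**
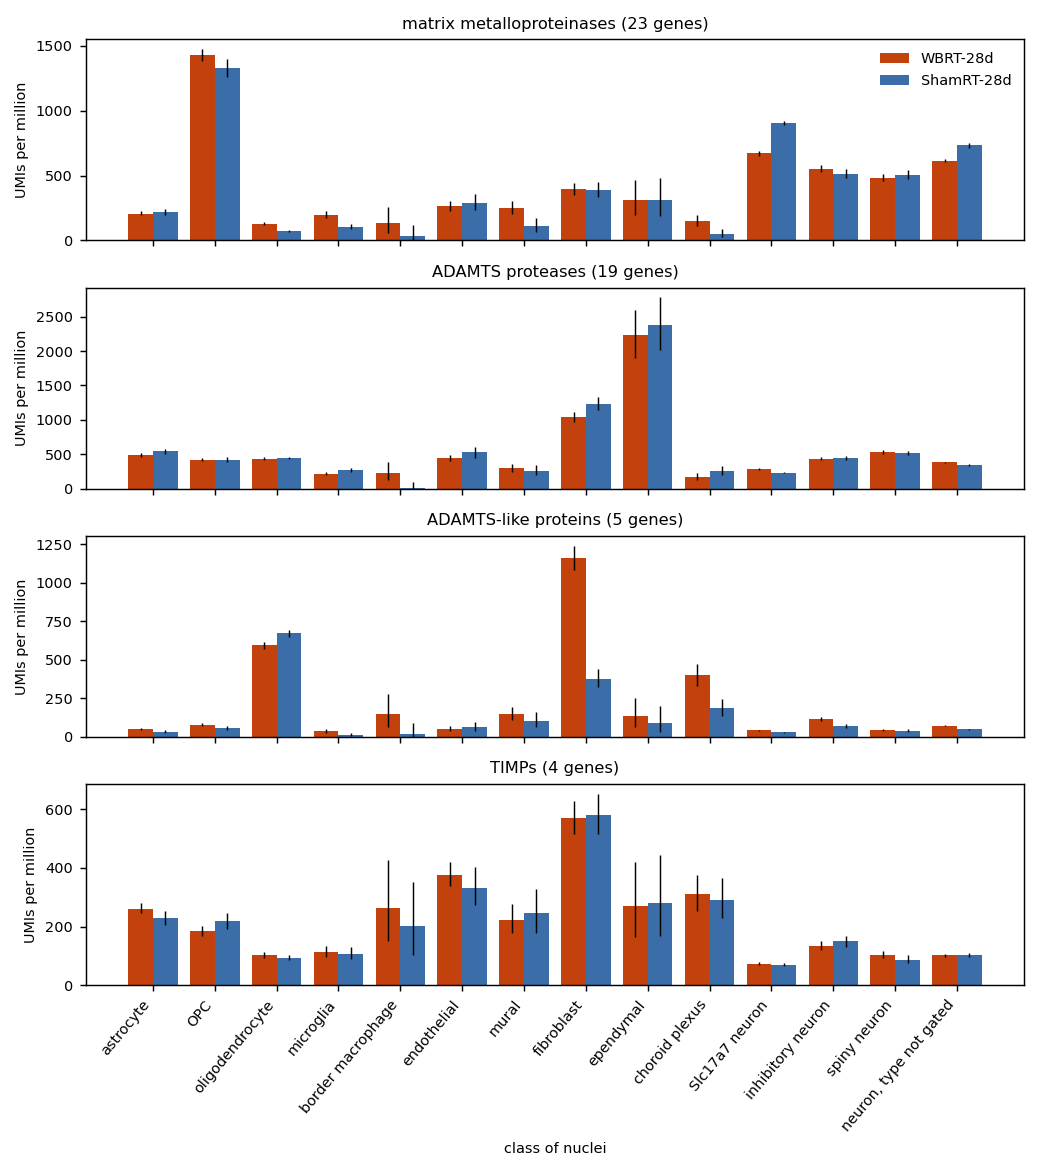
CPM summed over the genes of each family (y axes, linear and starting at 0) in 14 classes of nuclei (x axis), with WBRT-28d bars beside ShamRT-28d bars and exact 95% counting intervals. MMPs are highest in OPCs (1428 CPM in WBRT-28d, 1327 CPM in ShamRT-28d), ADAMTS proteases in ependymal nuclei (2227 CPM in WBRT-28d, 2372 CPM in ShamRT-28d), and ADAMTS-like proteins differ most visibly in fibroblasts (1160 CPM in WBRT-28d, 379 CPM in ShamRT-28d).

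Proteases were set beside their inhibitors as UMIs of a family per TIMP UMI. MMP transcripts outnumbered TIMP transcripts most in neurons (6.22 in WBRT-28d, 8.24 in ShamRT-28d) and OPCs (7.72 in WBRT-28d, 6.10 in ShamRT-28d). Among the 7 main classes the ratio was below 1 in both libraries in astrocytes (0.794 in WBRT-28d, 0.953 in ShamRT-28d), endothelial nuclei (0.702 in WBRT-28d, 0.870 in ShamRT-28d) and fibroblasts (0.689 in WBRT-28d, 0.667 in ShamRT-28d). For ADAMTS proteases the count per TIMP UMI in oligodendrocytes was 4.25 in WBRT-28d and 4.72 in ShamRT-28d. In ependymal nuclei 164 ADAMTS UMIs stood beside 20 TIMP UMIs in WBRT-28d, and 152 beside 18 in ShamRT-28d. These figures depend on gene length and are no measure of enzyme against inhibitor. Summed TIMP UMIs differed little between the conditions, with ratios of 1.14 (1.01–1.29) in astrocytes, 0.850 (0.729–0.994) in OPCs, 0.981 (0.841–1.15) in fibroblasts and 1.05 (0.996–1.11) in neurons.

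The comparison of WBRT-28d with ShamRT-28d asks which members differed in each cell type 28 days after irradiation. A gene was called past the fold where it had at least 20 UMIs in the class, a ratio of at least 1.5 or at most 0.667, and an interval that left out 1. Over 7 classes, 38 pairs of a member and a class were past the fold, 24 of them higher in WBRT-28d and 14 lower. The members tested numbered from 11 in microglia to 38 in neurons. By class, between 0% (endothelial nuclei) and 27.3% (microglia) of them were higher, and between 0% (oligodendrocytes) and 16% (astrocytes) lower. Of all genes tested, between 4.27% (OPCs) and 13.2% (oligodendrocytes) were higher, and between 3.94% (oligodendrocytes) and 6.44% (neurons) were lower. Predicted free RNA reached 50% or more of the measured level in 20 of the 24 higher pairs, and in 0 of the 14 lower pairs (taken in ShamRT-28d, where the level was higher). It was predicted from neuron genes in 12 of these 20 pairs, and from oligodendrocyte markers in the 8 that lay in neurons. The 4 higher pairs under that share were Adamtsl3, Adamtsl1 and Adamts2 in fibroblasts and Adamts3 in neurons, of which the last fell short of the fold without Slc17a6 neurons. The part of free RNA in the other higher pairs was not tested beyond this prediction. In all 7 classes the share of free RNA was larger in WBRT-28d, as in neurons with 33.1% in WBRT-28d and 13.3% in ShamRT-28d. Higher pairs were scored with the larger share and lower pairs with the smaller, so 20 of 24 and 0 of 14 cannot be compared.

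**Figure D3:**
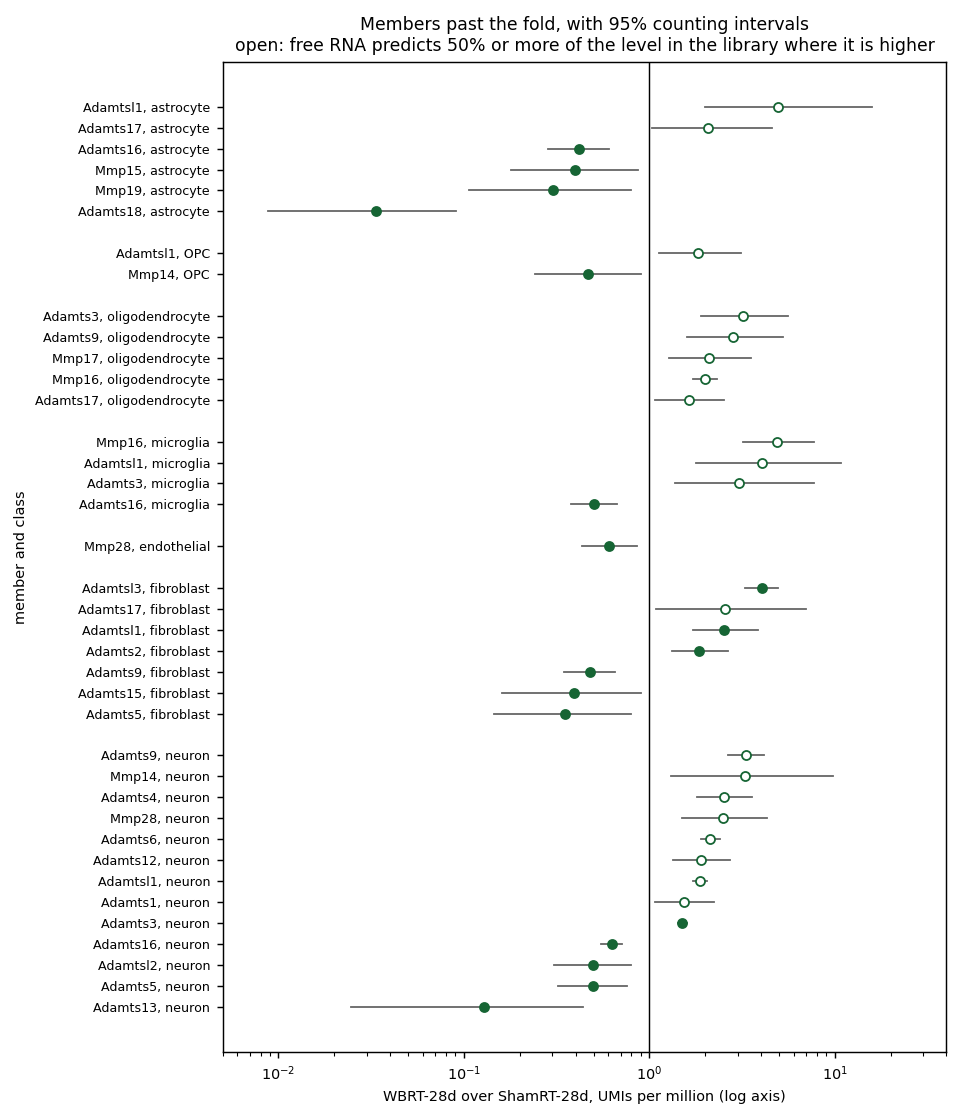
Ratio of WBRT-28d over ShamRT-28d (x axis, log scale) for the 38 pairs of a member and a class past the fold, with exact 95% counting intervals. Open points, for which free RNA predicts 50% or more of the level where it is higher, all lie right of 1, while the filled points right of 1 are 3 fibroblast genes and Adamts3 in neurons. Points left of 1 were scored in ShamRT-28d, where the share of free RNA was smaller.

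Fibroblasts held 3 of the 4 higher pairs that free RNA did not approach. The 4 members higher in WBRT-28d were Adamtsl3, Adamts17, Adamtsl1 and Adamts2, and the 3 lower were Adamts5, Adamts9 and Adamts15, out of 19 with 20 UMIs or more. Of all genes tested in fibroblasts 6.06% were higher and 4.44% were lower. The median log2 ratio was -0.02 over the members and 0.01 over all genes. The class held 271 nuclei in WBRT-28d and 176 in ShamRT-28d.

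Adamtsl3 had 671 UMIs in 45 fibroblast nuclei of WBRT-28d, against 111 UMIs in 18 fibroblast nuclei of ShamRT-28d. Its level was 921 CPM in WBRT-28d and 229 CPM in ShamRT-28d, a ratio of 4.03 (3.29–4.97). The nucleus with the most held 45 UMIs in WBRT-28d and 15 UMIs in ShamRT-28d. Without these nuclei the ratio was 4.30 (3.46–5.38). Free RNA predicted 0.636% of the WBRT-28d level. Summed over all kept nuclei the ratio was 2.46 (2.19–2.77), but this sum holds the same fibroblast UMIs (671 of 1242 in WBRT-28d, 111 of 370 in ShamRT-28d). Adamtsl3 was not past the fold in OPCs (1.15, 0.791–1.69) or neurons (1.26, 0.972–1.64). The same held in oligodendrocytes (1.22, 0.818–1.82) and astrocytes (0.873, 0.453–1.75).

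Adamtsl1 in fibroblasts had 122 UMIs in WBRT-28d and 32 in ShamRT-28d, a ratio of 2.54 (1.71–3.88). One nucleus held 27 of the WBRT-28d UMIs and one held 12 of the ShamRT-28d UMIs, and the ratio without them was 3.16 (1.94–5.41). Adamts2, the procollagen protease, had 131 UMIs in WBRT-28d and 47 UMIs in ShamRT-28d, a ratio of 1.86 (1.32–2.65), with free RNA predicting 3.99% of its WBRT-28d level. Adamtsl1 shares 13.7% of its length with Sh3gl2 on the same strand, and how reads there were counted was not examined. Sh3gl2 stood at 79.6 CPM in fibroblasts of WBRT-28d and 26.8 CPM in those of ShamRT-28d. Adamts17 had 27 UMIs in WBRT-28d and 7 UMIs in ShamRT-28d and a ratio of 2.57 (1.09–6.99), and free RNA predicted 53.7% of its WBRT-28d level.

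In the other direction, Adamts9 in fibroblasts had 71 UMIs in 41 nuclei of WBRT-28d, against 99 UMIs in 35 nuclei of ShamRT-28d, a ratio of 0.478 (0.347–0.655). Without the nucleus with most UMIs in each library it was 0.502 (0.357–0.702). Adamts5 had 10 UMIs in WBRT-28d and 19 UMIs in ShamRT-28d (0.351, 0.146–0.793), and Adamts15 had 10 UMIs in WBRT-28d and 17 UMIs in ShamRT-28d (0.392, 0.160–0.907). All 3 can cut proteoglycans. Adamts9 shares 1.85% of its length with the opposite-strand transcript 9530026P05Rik, which was high in fibroblasts at 1499 CPM in WBRT-28d and 1316 CPM in ShamRT-28d. After thinning every nucleus to 1000 UMIs, 0 members were lower past the fold in place of 3.

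Clustering without the members split the fibroblasts into a larger cluster (217 nuclei of WBRT-28d and 154 of ShamRT-28d) and a smaller one (54 nuclei of WBRT-28d and 22 of ShamRT-28d), and this division was examined after the ratios had been seen. The smaller cluster took 19.9% of the fibroblasts in WBRT-28d and 12.5% in ShamRT-28d. Adamtsl3 lay almost wholly in it, with 671 UMIs there and 0 in the larger cluster in WBRT-28d, and 109 UMIs there and 2 in the larger cluster in ShamRT-28d. Within the smaller cluster the Adamtsl3 level was 3753 CPM in WBRT-28d and 1250 CPM in ShamRT-28d, a ratio of 3.0035 (2.45–3.71). The ratio in the whole class thus combined a larger share of these nuclei with a higher level within them.

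Other members also differed between the clusters in both libraries. The smaller cluster had 2.94 times the Adamts2 level of the larger in WBRT-28d and 3.38 times in ShamRT-28d, and its Mmp16 level was 2.89 times as high in WBRT-28d and 2.02 times in ShamRT-28d. The larger cluster was the main site of Timp3, Adamts10 and Adamts12, since their level in the smaller was 0.225 times as high for Timp3, 0.393 for Adamts10 and 0.231 for Adamts12 in WBRT-28d, and 0.118, 0.549 and 0.435 times for these genes in ShamRT-28d. The Adamtsl1 ratio was 1.75 (1.16–2.69) in the smaller cluster. The lower Adamts9 level lay in the larger cluster, at 105 CPM in WBRT-28d and 233 CPM in ShamRT-28d (0.452, 0.3199–0.634), with 1.06 (0.375–3.39) in the smaller. Adamts2 was at 1.80 (1.13–2.93) in the larger and 1.56 (0.933–2.72) in the smaller. Timp2 was at 0.441 (0.224–0.863) in the smaller cluster and 1.66 (0.919–3.13) in the larger.

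**Figure D4:**
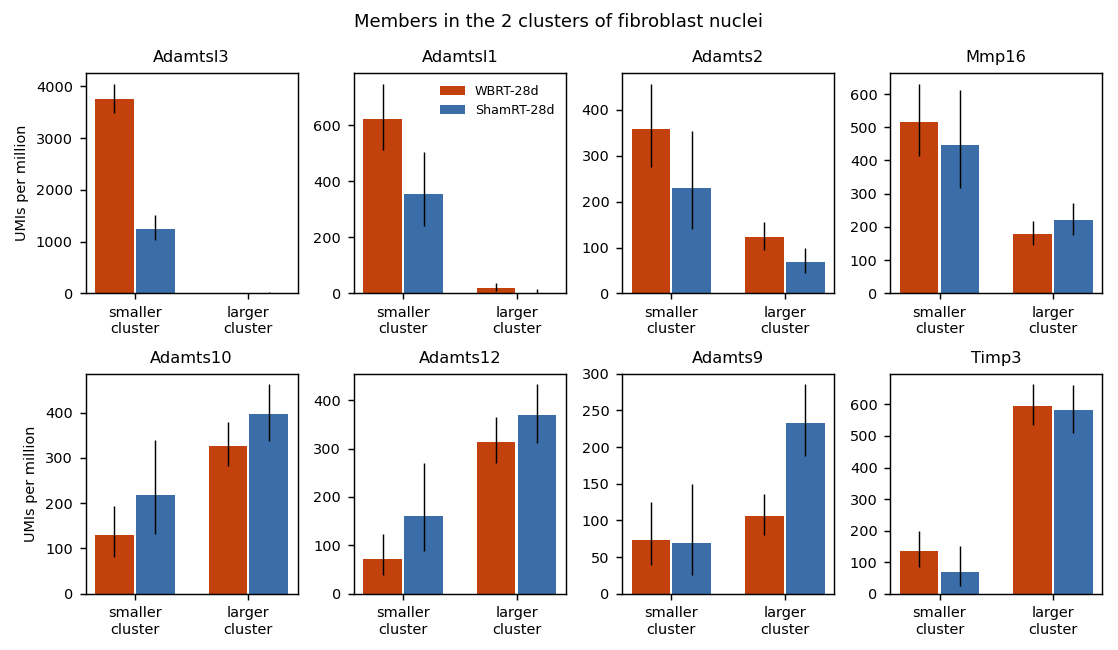
CPM (y axes, linear from 0) of 8 members in the smaller and the larger cluster of fibroblast nuclei, with WBRT-28d bars left of ShamRT-28d bars and exact 95% counting intervals. Adamtsl3 and Adamtsl1 are nearly confined to the smaller cluster, Timp3, Adamts10 and Adamts12 are higher in the larger one, and Adamts9 is lower in WBRT-28d in the larger one (105 CPM in WBRT-28d, 233 CPM in ShamRT-28d).

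Microglia showed 1 member that was lower in WBRT-28d and not near free RNA. Adamts16 (chr13:70727802-70841811, minus strand), one of the ADAMTS proteases whose substrates are less well known, had 82 UMIs in 62 of the 634 microglia of WBRT-28d, against 128 UMIs in 97 of the 550 microglia of ShamRT-28d. Its level was 63.3 CPM in WBRT-28d and 125 CPM in ShamRT-28d, a ratio of 0.505 (0.378–0.671), and free RNA predicted 1.83% of the ShamRT-28d level. No nucleus held more than 4 UMIs in WBRT-28d or 6 in ShamRT-28d. Microglia markers summed to 16108 CPM in WBRT-28d and 21504 CPM in ShamRT-28d, and the part of this difference in the Adamts16 ratio was not tested.

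Adamts16 was also lower in astrocytes, spiny neurons and Slc17a7 neurons. In astrocytes Adamts16 had 57 UMIs in WBRT-28d and 62 UMIs in ShamRT-28d (0.415, 0.284–0.604). In spiny neurons it had 15 UMIs in WBRT-28d and 48 UMIs in ShamRT-28d (0.177, 0.0919–0.321), and in Slc17a7 neurons 87 UMIs in WBRT-28d and 234 UMIs in ShamRT-28d (0.572, 0.442–0.734). Its ratio over all nuclei was 0.654 (0.591–0.724). In Slc17a7 neurons the ratio turned to 1.14 after thinning to 1000 UMIs. It was not past the fold in inhibitory neurons (0.810, 0.515–1.28), in neurons whose type was not gated (0.869, 0.713–1.06) or in oligodendrocytes (1.31, 0.573–3.07).

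The 3 microglial members higher in WBRT-28d were Mmp16, Adamts3 and Adamtsl1, and 1 of the 11 tested was lower. Of all genes in microglia 9.94% were higher and 4.53% lower. Mmp16 had 161 UMIs in WBRT-28d and 26 UMIs in ShamRT-28d (4.88, 3.21–7.69), of which 34 came from 1 nucleus of WBRT-28d. Free RNA predicted 82.7% of its WBRT-28d level, 82.8% of that of Adamtsl1 and 79.8% of that of Adamts3. The median log2 ratio was -0.02 over the members and 0.03 over all genes.

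In astrocytes, 2 of 25 members were higher in WBRT-28d and 4 were lower, against 4.63% and 5.89% of all genes, with a median log2 ratio of 0.05 over the members and -0.02 over all genes. Adamts18 (chr8:113697126-113848738, minus strand) had 4 UMIs in 4 of the 1203 astrocytes of WBRT-28d, against 54 UMIs in 24 of the 584 astrocytes of ShamRT-28d. Its ratio was 0.0334 (0.00879–0.0907). One ShamRT-28d nucleus held 8 of the UMIs, and without the leading nucleus of each library the ratio was 0.0294 (0.00585–0.0915). Free RNA predicted more Adamts18 than was found in the WBRT-28d astrocytes and 6.06% of the ShamRT-28d level.

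Besides Adamts16 and Adamts18, Mmp15 (14 UMIs in WBRT-28d, 16 UMIs in ShamRT-28d) and Mmp19 (8 UMIs in WBRT-28d, 12 UMIs in ShamRT-28d) were the lower members of astrocytes, with ratios of 0.395 (0.179–0.864) and 0.301 (0.107–0.801). The higher ones were Adamtsl1 at 4.97 (2.00–15.9), where free RNA predicted 149% of the WBRT-28d level, and Adamts17 at 2.08 (1.03–4.61), where it predicted 140%. With predicted free RNA subtracted, 0 members were higher and 7 lower. Adamts6 stood at 0.686 (0.574–0.821), just inside the fold. The astrocyte-rich Adamts9 was at 1.11 (0.974–1.26) and Timp4 at 1.25 (0.963–1.65).

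The astrocytes were also divided, after the ratios had been seen, by whether a nucleus held a UMI of Gfap, Myoc, Tnc or Thbs4, of which Gfap and Myoc mark fibrous and surface astrocytes. Nuclei with such a UMI numbered 419 in WBRT-28d and 211 in ShamRT-28d. Adamts9 was higher in them, at 426 CPM in WBRT-28d and 430 CPM in ShamRT-28d, than in the others, at 139 CPM in WBRT-28d and 98.1 CPM in ShamRT-28d. Its ratio was 0.991 (0.851–1.16) with such a UMI and 1.42 (1.13–1.80) without. Adamts18 was low in WBRT-28d in both, at 0.0540 (0.00605–0.227) with such a UMI and 0.0242 (0.00282–0.0937) without. Adamts16 was at 0.358 (0.218–0.583) with such a UMI and 0.532 (0.286–1.0003) without.

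In endothelial nuclei, 0 of 12 members were higher and 1 was lower, against 6.22% and 4.44% of all genes. That member was Mmp28, with 91 UMIs in 72 of the 459 nuclei of WBRT-28d, against 58 UMIs in 42 of the 207 nuclei of ShamRT-28d, a ratio of 0.610 (0.434–0.863). Free RNA predicted 0.360% of its ShamRT-28d level. Timp3 was at 1.10 (0.866–1.40), Adamts10 at 0.796 (0.582–1.10) and Adamts1 at 0.696 (0.473–1.04), none past the fold. The median log2 ratio was -0.08 over the members and 0.02 over all genes. The count of lower members was 4 when classes were taken from clusters.

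In OPCs, 1 of 21 members was higher and 1 was lower, against 4.27% and 4.47% of all genes. Mmp14 had 21 UMIs in each library, which gave 8.24 CPM in WBRT-28d and 17.7 CPM in ShamRT-28d, a ratio of 0.466 (0.242–0.896). After thinning to 1000 UMIs the ratio turned to 1.54. Adamtsl1 was at 1.84 (1.13–3.13), with free RNA predicting 138% of its WBRT-28d level. The members with most UMIs in OPCs differed little, with Mmp16 at 1.08 (1.01–1.15), Adamts6 at 0.884 (0.742–1.06) and Timp3 at 0.887 (0.723–1.09). The median log2 ratio was 0.11 over the members and 0.00 over all genes.

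In oligodendrocytes, 5 of 20 members were higher and 0 were lower, against 13.2% and 3.94% of all genes. They were Adamts3 at 3.20 (1.90–5.59), Adamts9 at 2.84 (1.60–5.28), Mmp17 at 2.10 (1.27–3.54), Mmp16 at 1.99 (1.71–2.32) and Adamts17 at 1.64 (1.08–2.52), which turned to 0.981 with doublet calls kept. None of these genes has its highest level in this class, and free RNA predicted between 73.4% and 143% of their WBRT-28d levels. With predicted free RNA subtracted, 2 were higher and 1 was lower. The members that lead in oligodendrocytes (Adamts4, Adamtsl1 and Adamtsl4) were not past the fold. The median log2 ratio was 0.26 over the members and 0.05 over all genes.

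Neurons, taken as 5825 nuclei of WBRT-28d and 4393 of ShamRT-28d in 5 types, had 9 higher and 4 lower members of 38, against 8.55% and 6.44% of all genes. One of the types, the Slc17a6 neurons, lay almost wholly in ShamRT-28d (6 nuclei in WBRT-28d, 82 nuclei in ShamRT-28d), and without it Adamts3 (1.47, 1.39–1.55), Adamts1 (1.48, 1.03–2.15) and Adamts16 (0.675, 0.591–0.772) were no longer past the fold. The other 7 higher and 3 lower members still were. Adamts3 was the higher member with the least free RNA (24.6% of the WBRT-28d level). It had 3481 UMIs in WBRT-28d and 1891 UMIs in ShamRT-28d, 112 CPM in WBRT-28d and 74.4 CPM in ShamRT-28d, a ratio of 1.505 (1.42–1.59). In spiny neurons, where it is highest, the ratio was 0.937 (0.847–1.04), and spiny neurons made up 560 of the neurons of WBRT-28d and 244 of those of ShamRT-28d. Within the other types the ratio was 1.34 (1.17–1.53) in Slc17a7 neurons, 1.10 (0.871–1.39) in inhibitory neurons and 1.51 (1.38–1.65) in neurons whose type was not gated, so that of these types only the last was past the fold.

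The other higher members in neurons were Adamts9 (3.30), Mmp14 (3.27), Adamts4 (2.52), Mmp28 (2.49), Adamts6 (2.13), Adamts12 (1.90), Adamtsl1 (1.87) and Adamts1 (1.53). Here free RNA was taken from oligodendrocyte markers, and it predicted between 50.2% and 158% of their WBRT-28d levels. Apart from Adamts3, none has its highest class among neurons. With predicted free RNA subtracted, 3 members were higher and 11 lower in neurons. After thinning, 3 were higher and 1 lower. The median log2 ratio was 0.14 over the members and 0.01 over all genes.

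The 4 lower members in neurons were Adamts16 at 0.628 (0.551–0.714), Adamts5 at 0.496 (0.3203–0.758), Adamtsl2 at 0.497 (0.307–0.791) and Adamts13 at 0.129 (0.0245–0.438). Their UMIs in neurons of WBRT-28d were 417, 37, 31 and 3 in the same order of genes, against 543, 61, 51 and 19 in those of ShamRT-28d. Adamts13, which cleaves von Willebrand factor, was rare everywhere, with 5 UMIs in all kept nuclei of WBRT-28d and 38 in those of ShamRT-28d (0.0964, 0.0296–0.245). Its UMIs in ShamRT-28d were spread over neurons and 10 oligodendrocyte nuclei with 12 UMIs, against 0 UMIs in oligodendrocytes of WBRT-28d. Mmp16, which gave most of the MMP UMIs in neurons, was at 0.788 (0.771–0.805), inside the fold, with 517 CPM in WBRT-28d and 657 CPM in ShamRT-28d.

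Among the neuron types, Adamts19 in inhibitory neurons had 8 UMIs in 5 nuclei of WBRT-28d, against 39 UMIs in 10 nuclei of ShamRT-28d, a ratio of 0.125 (0.0503–0.271). A single ShamRT-28d nucleus held 14 of them. Adamts18 was higher in spiny neurons, with 57 UMIs in WBRT-28d and 12 UMIs in ShamRT-28d (2.68, 1.42–5.50), and lower in Slc17a7 neurons, with 78 UMIs in WBRT-28d and 222 UMIs in ShamRT-28d (0.540, 0.412–0.702). Timp4 was past the fold in spiny neurons, with 101 UMIs in WBRT-28d and 27 UMIs in ShamRT-28d (2.11, 1.37–3.36), and was the only TIMP past the fold in any gated class.

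Choroid plexus and mural cells also held members past the fold. In choroid plexus (68 nuclei of WBRT-28d and 47 of ShamRT-28d), Adamts1 had 14 UMIs in 9 nuclei of WBRT-28d, against 36 UMIs in 18 nuclei of ShamRT-28d, a ratio of 0.306 (0.152–0.581). Adamtsl1 had 116 UMIs in WBRT-28d and 41 UMIs in ShamRT-28d there (2.22, 1.55–3.26). In mural cells (188 nuclei of WBRT-28d and 104 of ShamRT-28d), Mmp16 was at 4.11 (1.87–10.7), with free RNA predicting 75.4% of its WBRT-28d level. Adamtsl1 in mural cells, with 27 UMIs in WBRT-28d and 1 UMI in ShamRT-28d, was at 13.2 (2.17–539), with 36.9% predicted.

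Genes that meet these enzymes were read in the same way. Of 23 substrates, those higher and lower in WBRT-28d numbered 1 and 2 of 16 tested in astrocytes, 4 and 2 of 17 in OPCs, 10 and 1 of 20 in oligodendrocytes, 6 and 0 of 11 in microglia, 3 and 1 of 12 in endothelial nuclei, 5 and 0 of 15 in fibroblasts, and 10 and 0 of 23 in neurons. Free RNA predicted 50% or more of the WBRT-28d level in 29 of these 39 higher pairs of a substrate and a class, among them 10 of the 10 in neurons, 6 of the 10 in oligodendrocytes and 4 of the 6 in microglia. Of all genes, 4.63% were higher in astrocytes, 4.27% in OPCs, 13.2% in oligodendrocytes and 9.94% in microglia. In endothelial nuclei 6.22% were higher, in fibroblasts 6.06% and in neurons 8.55%. The share of all genes that were lower ran from 3.94% in oligodendrocytes to 6.44% in neurons. In fibroblasts the matrix genes fibronectin (Fn1, 264 UMIs in WBRT-28d and 96 UMIs in ShamRT-28d) and fibrillin 1 (Fbn1, 107 UMIs in WBRT-28d and 37 UMIs in ShamRT-28d) were higher in WBRT-28d, at 1.83 (1.45–2.34) and 1.93 (1.32–2.88), with free RNA predicting 1.75% and 4.59% of their levels. The other 3 higher there were Vcan, Tnr and Cdh2, for which it predicted 57.3%, 346% and 135% of the WBRT-28d level. In astrocytes neurocan (Ncan), a proteoglycan cleaved by ADAMTS enzymes, was lower, with 122 CPM in WBRT-28d and 188 CPM in ShamRT-28d (0.646, 0.556–0.751).

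Of 13 other inhibitors and clearance receptors, 2 were higher and 1 lower of 10 in astrocytes, 1 and 0 of 9 in OPCs, 4 and 0 of 9 in oligodendrocytes, 3 and 1 of 8 in microglia, 2 and 0 of 9 in endothelial nuclei, 0 and 0 of 8 in fibroblasts, and 0 and 0 of 12 in neurons. Of all genes, between 4.27% (OPCs) and 13.2% (oligodendrocytes) were higher, and between 3.94% (oligodendrocytes) and 6.44% (neurons) were lower. Free RNA predicted 50% or more of the WBRT-28d level in all 12 higher pairs of an inhibitor or receptor and a class. The lower ones were alpha-2-macroglobulin (A2m) in astrocytes (0.556, 0.357–0.871), a broad trap for proteases, and Lrp1 in microglia (266 CPM in WBRT-28d and 462 CPM in ShamRT-28d, 0.577, 0.501–0.664), a receptor that takes up proteases bound to their inhibitors. In choroid plexus A2m had 13 UMIs in WBRT-28d and 60 UMIs in ShamRT-28d (0.1703, 0.0858–0.314).

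Of 18 activators and other sheddases, of which Meltf had no entry in the matrices, 1 was higher and 1 lower of 12 in astrocytes, 1 and 0 of 13 in OPCs, 4 and 0 of 14 in oligodendrocytes, 0 and 1 of 9 in microglia, 0 and 3 of 11 in endothelial nuclei, 0 and 1 of 13 in fibroblasts, and 3 and 0 of 15 in neurons, with 6 of the 9 higher pairs at 50% or more predicted by free RNA. Of all genes, between 4.27% (OPCs) and 13.2% (oligodendrocytes) were higher, and between 3.94% (oligodendrocytes) and 6.44% (neurons) were lower. In endothelial nuclei the share of all genes that were lower was 4.44%. The 3 lower genes of this list in endothelial nuclei were tissue plasminogen activator (Plat, 0.482, 0.327–0.714), the proprotein convertase Pcsk5 (0.368, 0.225–0.600) and the sheddase Adam9 (0.530, 0.296–0.964). In microglia urokinase (Plau) had 5 UMIs in WBRT-28d and 15 UMIs in ShamRT-28d (0.263, 0.0747–0.760). In fibroblasts Ccbe1, the cofactor with which Adamts3 activates VEGF-C, had 134 UMIs in WBRT-28d and 159 UMIs in ShamRT-28d (0.562, 0.443–0.712), while in choroid plexus it had 196 UMIs in WBRT-28d and 97 UMIs in ShamRT-28d (1.59, 1.24–2.05).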

How the data were processed

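The authors isolated nuclei from frozen brains, ran the Chromium system, used Cell Ranger with a custom mm10 reference in which introns count, and deposited raw UMI counts per gene and barcode without normalization or cell types. Seurat 3.0 and R 3.5.3 appear in the submitters' processing notes.

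Barcodes with under 500 detected genes or over 5% mitochondrial UMIs were dropped, and the highest Scrublet scores up to 0.8% per 1000 barcodes (12.8% of WBRT-28d and 9.18% of ShamRT-28d) were removed as doublets. A nucleus joined a class with at least 3 detected markers and a marker level of at least 0.3. The level was the share of UMIs from the class's markers, relative to the mean share in nuclei with many of those markers detected. It also had to be at least 2 times the level of any other class. In WBRT-28d 2423 nuclei stayed outside any class, and in ShamRT-28d 1625. Slc17a6 neurons (6 nuclei of WBRT-28d, 82 of ShamRT-28d) were not compared on their own but enter the sum over neurons, and immature neurons (1 of WBRT-28d, 48 of ShamRT-28d) were not compared. Free RNA outside neurons was scaled from 8 neuron genes, and in neurons from oligodendrocyte markers, times each gene's library mean. For the fold, CPM ratios of genes with at least 20 UMIs in a class were used, with conditional Clopper-Pearson intervals, Poisson intervals for levels, and no p-value. Members with at least 20 UMIs are named with values. Members, marker lists and partner lists were chosen with earlier results of these data known. Gene overlaps are from GENCODE M21, and positions are on GRCm38. Alternatives changed the classes (clusters, stricter margin), doublets, filters, depth, free RNA, scaling, minimum and fold, and the division of fibroblasts and astrocytes, the removal of leading nuclei and neurons without the Slc17a6 type were added after seeing the data. The ratio, interval and call were tested on simulated Poisson counts. The gate, the doublet calls, the clusters and the free RNA prediction were not tested in this way. T and NK cell markers (7 genes) summed to 13.0 CPM in WBRT-28d, against 12.0 CPM in ShamRT-28d. Erythrocyte markers (5 genes) summed to 35.7 CPM in WBRT-28d, against 43.8 CPM in ShamRT-28d. The number of per-sample columns without a sample was 0. The tools were scanpy 1.11.5 (with Scrublet), igraph 0.11.9 (Leiden), scikit-learn 1.9.0, scipy 1.17.1, matplotlib 3.10.9, pandas 2.3.3 and numpy 2.4.6 under Python 3.11.15.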

Additional observations from a re-analysis of the deposited data

Results flagged for a closer look

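The ratios of 4 members (WBRT-28d over ShamRT-28d) lay on opposite sides of 1 in different classes, each with a counting interval that left out 1. The difference between the classes was not tested.

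Mmp28 stood at 2.38 (1.25–4.90) in neurons whose type was not gated and at 0.610 (0.434–0.863) in endothelial nuclei, where it is highest. The value in neurons turned to 0.892 with clusters as classes, 0.635 after thinning and 0 with free RNA subtracted. Adamts9 stood at 2.84 in oligodendrocytes, 4.74 in Slc17a7 neurons, 1.97 in inhibitory neurons, 14.1 in spiny neurons (25 UMIs in WBRT-28d, 1 in ShamRT-28d) and 2.68 in neurons without a type, and at 0.478 in fibroblasts. Its high side lay in classes where it is scarce. With free RNA subtracted it was 1.58 in oligodendrocytes and 5.94 in Slc17a7 neurons, and it turned to 0 in inhibitory neurons and 0.629 in neurons without a type.

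Adamts18 stood at 2.68 in spiny neurons, at 0.0334 in astrocytes and at 0.540 in Slc17a7 neurons. Adamts19 stood at 2.26 in Slc17a7 neurons and at 0.125 in inhibitory neurons, where a single ShamRT-28d nucleus held 14 of 39 UMIs.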

How the results depend on the processing

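Each class's counts of members past the fold, and each family ratio, were recomputed with 1 choice changed. No paired analysis was possible because each condition has 1 library, and for the same reason no library could be left out. Over all classes 73 ratios were past the fold, counting neurons both by type and as a sum. Of these 73, 48 kept their call with predicted free RNA subtracted. A ratio could then be given for 62, since for the others the subtraction left no UMI in either library. After thinning to 1000 UMIs 21 of the 73 kept their call, and between 52 and 72 kept it under the other settings. Thinning left out 0 nuclei of WBRT-28d and 58 oligodendrocytes, 47 microglia, 27 endothelial, 20 astrocyte, 10 OPC and 5 fibroblast nuclei of ShamRT-28d, and with fewer UMIs fewer members reach the minimum. No count or family ratio moved without the filter on nuclei or under median-of-ratios scaling, and no count moved without leading nuclei. Without Slc17a6 neurons, 7 members were higher and 3 lower in neurons, and each family ratio there stayed within its counting interval.

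With free RNA subtracted, the higher members numbered 0 in astrocytes, 0 in OPCs, 2 in oligodendrocytes and 3 in neurons, and the lower ones 7 in astrocytes, 1 in oligodendrocytes, 2 in microglia, 3 in endothelial nuclei and 11 in neurons. After thinning, the higher numbered 0 in OPCs, 3 in oligodendrocytes and 3 in neurons, and the lower 2 in astrocytes, 0 in OPCs, 0 in fibroblasts and 1 in neurons. With clusters as classes, 1 was higher in astrocytes, and 2 were higher and 4 lower in endothelial nuclei. With doublets kept, 1 was higher in astrocytes. With the stricter margin, 0 were lower in OPCs and 2 in endothelial nuclei. At a minimum of 50 UMIs, 2 were lower in astrocytes, 0 in OPCs and 1 in fibroblasts, and 1 was higher in microglia. With no minimum, 2 were lower in OPCs and 1 in oligodendrocytes. At a fold of 2, the higher numbered 0 in OPCs, 3 in oligodendrocytes and 5 in neurons, and the lower 0 in microglia and 0 in endothelial nuclei.

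With free RNA subtracted, the summed MMP ratio was 0.769 in astrocytes, 1.23 in OPCs, 1.56 in oligodendrocytes, 1.29 in microglia, 0.706 in endothelial nuclei and 0.819 in neurons. The ADAMTSL ratio was then 1.07 in astrocytes, 0.971 in oligodendrocytes and 1.10 in neurons, the ADAMTS ratio 0.675 in microglia, and the TIMP ratio 0.877 in neurons. Without the leading gene of the family, the MMP ratio was 0.829 in astrocytes, 1.30 in oligodendrocytes, 1.40 in endothelial nuclei and 0.830 in neurons, and turned to 0.943 in microglia. The ADAMTS ratio was 0.763 in astrocytes and 1.30 in neurons, and turned to 1.10 in microglia. The ADAMTSL ratio was 0.805 in oligodendrocytes, 1.59 in fibroblasts and 1.003 in neurons, and the TIMP ratio 1.62 in microglia, 1.42 in endothelial nuclei and 1.19 in neurons. With doublets kept, the MMP ratio was 1.47 in microglia. With the stricter margin, fibroblasts had 1.56 for MMPs and 4.08 for ADAMTSL, and neurons 1.43 for ADAMTSL. With clusters, ADAMTSL was 2.59 in fibroblasts and 1.36 in neurons, and MMPs 0.814 in neurons. After thinning, ADAMTSL was 3.79 in fibroblasts, and neurons had 0.826 for MMPs, 1.14 for ADAMTS, 1.47 for ADAMTSL and 0.987 for TIMPs.

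Single ratios that turned to the other side of 1 after thinning were Mmp14 in OPCs (1.54), Adamts5 (1.23) and Adamts16 (1.14) in Slc17a7 neurons, Adamts2 in inhibitory neurons (0.696), Adamtsl5 in spiny neurons (1.29), and Mmp28 in neurons without a type (0.635) and in all neurons (0.459). With free RNA subtracted they were Adamtsl1 in Slc17a7 neurons (0.801), Adamts9 in inhibitory neurons (0), in neurons without a type (0.629) and in all neurons (0.808), Mmp28 in neurons without a type (0) and in all neurons (0), and Adamts1 (0.637) and Adamts12 (0.0944) in all neurons. With doublets kept, Adamts17 in oligodendrocytes was at 0.981. With clusters, Mmp28 in neurons without a type was at 0.892. In the smaller fibroblast cluster, Adamts9 was at 1.06. The causes were not tested.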
